A study of Mus musculus with 36 samples.

Results

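The cathepsins and lysosomal genes described here are 10 genes chosen by symbol from the gene count table, which lists 55487 genes: the proteases Ctsb, Ctsd, Ctsl, Ctss, Ctsz, Ctsk and Lgmn, the lysosomal membrane proteins Lamp1 and Lamp2, and the progranulin gene Grn. All 10 passed the filter on low counts in every comparison. They were measured by bulk RNA-seq in 36 libraries from unmyelinated optic nerve at the nerve head (UON), myelinated optic nerve (MON) and retina of C57BL/6 mice. Tissue came from mice left naïve on both sides, from mice with 1 optic nerve crushed (3 D or 2 W later), and from mice whose 1 eye had received microbeads (3 D, 2 W or 6 W later), a glaucoma model that raises eye pressure. Each of the 18 groups held 1 library from a pool of 2 female mice and 1 from a pool of 2 male mice (n = 2), and the same mice gave all 3 tissues, so a pool stands for its mice and for its sex. Naïve mice had neither procedure, so anesthesia and surgery differ together with the injury, and all comparisons with naïve in a tissue share the same 2 naïve libraries. Per the study, the crush was made on the MON itself.

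Cathepsins are proteases that break down proteins in the acidic lumen of the lysosome. They are made as inactive precursors and trimmed there, and Lgmn, which cuts after asparagine, is one of the enzymes that trims them. Lamp1 and Lamp2 are heavily glycosylated proteins of the lysosomal membrane. Grn encodes a secreted protein that is taken up into lysosomes and cut into granulins. In the central nervous system these genes are active in many cells, and microglia and macrophages that clear debris hold them at high levels. In bulk tissue, fewer cells of a type and less RNA per cell cannot be told apart.

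The sequences shown first are those that set members apart or join them. Lamp2 has 3 coding splice forms that differ only in their last coding exon, and the shares of these forms differed between retina and nerve (given below). The coding part of that exon, exon 9 of 9 in each, is given 5′ to 3′ on the minus strand of chromosome X (GRCm38, GENCODE M21). The capitals mark the in-frame codons for glycine and tyrosine, with 3 codons after them, which form the sorting signal of the cytoplasmic tail.
Lamp2-201, chrX:38405435-38405571: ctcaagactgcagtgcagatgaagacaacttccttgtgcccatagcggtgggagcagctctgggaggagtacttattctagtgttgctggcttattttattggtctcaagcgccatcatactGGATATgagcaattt
Lamp2-202, chrX:38421715-38421851: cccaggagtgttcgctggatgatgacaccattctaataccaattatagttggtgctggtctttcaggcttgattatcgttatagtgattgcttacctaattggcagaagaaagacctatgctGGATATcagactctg
Lamp2-203, chrX:38402142-38402281: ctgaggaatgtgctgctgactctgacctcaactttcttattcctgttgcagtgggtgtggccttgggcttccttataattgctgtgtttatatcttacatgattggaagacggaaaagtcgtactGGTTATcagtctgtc
Over 137 aligned bases, Lamp2-201 shared 53.3% with Lamp2-202 and 51.1% with Lamp2-203, and the latter 2 shared 52.6%. The glycine and tyrosine codons are in all of them, at the same distance from the end.

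Lysosomal genes as a class are known for promoters with the E-box CACGTG, which the factor TFEB and its relatives bind, and myeloid genes for purine-rich sites bound by PU.1. RefSeq (GRCm38.p6) gave promoters of 300 bases, 250 before and 50 after the start, for 9 of the 10 members, with 2 entries for Lgmn and none for Ctsb. CACGTG, which reads the same on both strands, was in 4 of these 10 entries (Ctsd, Lamp1, Ctsl and 1 of Lgmn) and in 7.15% of 32851 promoters. The longer GTCACGTG, which contains it, was in Ctsd, Lamp1 and Lgmn and in 2.25% of all promoters, either strand counted. The full CLEAR palindrome, a longer E-box form searched by its letters, was in none of the members and in 0.326% of all promoters. GAGGAAGT, a PU.1 site searched on both strands, was in Ctss alone among the members and in 3.2% of all promoters. Printed 5′ to 3′ on the strand of the gene are the promoters of Ctsd, the member with the highest level per transcript length, of Lamp1, which did not move with it, and of Ctss. Capitals mark CACGTG in Ctsd and Lamp1 and the reverse complement of GAGGAAGT in Ctss.
Ctsd, chr7:142387778-142388077, minus strand: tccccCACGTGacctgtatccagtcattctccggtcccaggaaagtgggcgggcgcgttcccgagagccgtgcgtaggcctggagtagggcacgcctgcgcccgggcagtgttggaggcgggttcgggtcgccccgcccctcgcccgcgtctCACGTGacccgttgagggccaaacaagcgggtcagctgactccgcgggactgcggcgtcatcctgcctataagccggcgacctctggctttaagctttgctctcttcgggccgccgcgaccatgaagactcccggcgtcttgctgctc
Lamp1, chr8:13158911-13159210, plus strand: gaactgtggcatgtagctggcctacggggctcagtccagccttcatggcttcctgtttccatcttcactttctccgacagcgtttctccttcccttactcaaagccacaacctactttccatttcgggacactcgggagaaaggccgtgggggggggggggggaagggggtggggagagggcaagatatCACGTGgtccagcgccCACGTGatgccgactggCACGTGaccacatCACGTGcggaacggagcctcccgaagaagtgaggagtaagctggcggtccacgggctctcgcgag
Ctss, chr3:95526536-95526835, plus strand: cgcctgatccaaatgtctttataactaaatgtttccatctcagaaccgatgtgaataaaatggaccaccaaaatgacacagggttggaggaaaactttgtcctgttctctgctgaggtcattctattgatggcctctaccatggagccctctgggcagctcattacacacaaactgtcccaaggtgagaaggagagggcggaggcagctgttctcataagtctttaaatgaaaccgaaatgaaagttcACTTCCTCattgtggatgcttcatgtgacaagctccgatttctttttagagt
Ctsd holds CACGTG at 245 and 98 bases before its start. Lamp1 holds it at 61, 45, 28 and 15 bases before its start. In Ctss the matched letters begin 2 bases before the start and run across it. These are matches of letters and say nothing of binding. Besides Ctsd and Lamp1, CACGTG was in the windows of Ctsl and 1 entry of Lgmn. It was not found in the other windows, and Ctsb had no window. Whether these matches bear on the members' levels was not tested.

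The members lie on 9 chromosomes (GRCm38). Ctsb is on chromosome 14 from 63122462 to 63145923, Ctsd on 7 from 142375911 to 142388038, Ctsl on 13 from 64359337 to 64370890 and Ctsz on 2 from 174427493 to 174439039. Lamp1 is on 8 from 13159161 to 13175338, Lamp2 on X from 38401357 to 38456454, Lgmn on 12 from 102394084 to 102439813 and Grn on 11 from 102430315 to 102437048. Ctsk (95499256 to 95509362) and Ctss (95526786 to 95556403) are neighbors on chromosome 3, transcribed in the same direction.

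The 36 libraries held 16.2 to 78.1 M counts, and the naïve MON libraries were among the most unequal pairs (78.1 M from the female pool, 17.8 M from the male pool). The tissue labels matched their markers: summed levels of 8 photoreceptor genes were 55220 to 68970 in retina, in CPM (counts scaled to each library's total times its TMM factor, 1.139 to 1.298 in retina and 0.803 to 0.980 in nerve), and at most 379 in nerve, and 9 myelin genes summed to 47310 or more in each MON library and to 136 or less in retina. Summed retinal ganglion cell markers were 1037 and 945 CPM in naïve retina and 133 and 116 at 2 W after crush, in the female and the male pool. Strand is not named for the counting, so reads of overlapping antisense transcripts cannot be told apart from those of the members.

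In naïve tissue, Ctsd, the aspartic protease of the lysosome, had the highest level of the 10 in each tissue, and Ctsk, the collagen-cutting cathepsin of osteoclasts, the lowest. Levels between genes are compared in FPKM, a read level divided by transcript length and library depth, as mean ± SD over n = 2 pools. In naïve UON, Ctsd had 1018 ± 46.9 FPKM and ranked 37 among all genes. Below it came Ctsb, a cysteine protease, with 295 ± 3.18 FPKM, Lamp1 with 264 ± 37.8, Ctsz with 205 ± 6.45, Ctsl with 181 ± 46.4 and Ctss with 179 ± 19.2. Lamp2 (142 ± 16.5), Lgmn (118 ± 1.25), Grn (84.1 ± 9.70) and Ctsk (8.53 ± 2.37) followed. The pools of Ctsz and Ctsl and those of Ctsl and Ctss overlapped, so those neighbors did not differ beyond their spread, and the other neighbors did not overlap.

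In naïve MON, Ctsd had 673 ± 16.6 FPKM and ranked 57, and Ctss, a cathepsin of microglia and antigen-presenting cells, was next with 302 ± 28.2. Lamp1 had 241 ± 37.5 FPKM, Ctsb 193 ± 25.1, Ctsz 149 ± 17.8, Lgmn 143 ± 20.9, Ctsl 103 ± 8.56, Lamp2 95.8 ± 27.4, Grn 76.1 ± 4.33 and Ctsk 8.76 ± 1.5. Overlap between neighbors in this order was seen for Ctsz and Lgmn, for Ctsl and Lamp2, and for Lamp2 and Grn. In naïve retina, Ctsd had 242 ± 0.849 FPKM and ranked 245, Ctsb had 158 ± 2.50, and Lgmn followed with 82.0 ± 0.00787. Lamp1 had 72.3 ± 0.165 FPKM, Ctsl 58.0 ± 14.9, Ctsz 49.1 ± 0.136, Grn 22.9 ± 3.36 and Lamp2 20.9 ± 1.07, with overlap between Ctsl and Ctsz and between Grn and Lamp2. Ctss and Ctsk were the lowest members in retina, with 9.22 ± 0.0596 and 0.627 ± 0.0403 FPKM. Ctss thus stood next to Ctsd in MON and next to the last member in retina.

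**Figure D1:**
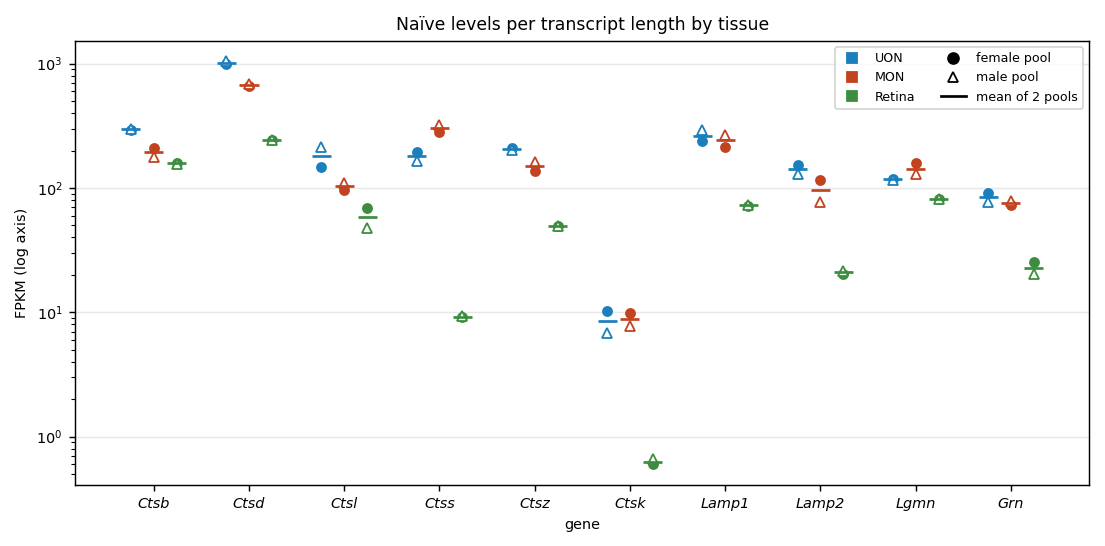
Naïve levels of the 10 members in FPKM (log axis) in UON, MON and retina; each point is 1 pool (n = 2 per tissue). Ctsd is highest in each tissue, and Ctss falls from 302 FPKM (mean) in MON to 9.22 in retina.

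To ask which regional differences exceed the spread between pools, the 6 naïve libraries were fitted together by edgeR's quasi-likelihood test on the counts in a model of tissue and sex, and p-values of the 23685 genes were adjusted by the Benjamini-Hochberg method. A gene passed at an adjusted p under 0.05, and it is called a DEG when its log2 fold change (log2FC) is also beyond 1. All 10 members were higher in UON than in retina (4757 of all genes tested, 20.1%, were), and 9 of 10 were higher in MON than in retina (18.3% of all genes). The exception was Ctsb in MON (log2FC 0.77 ± 0.25, edgeR adjusted p = 0.0597). For every fitted log2FC here, ± gives an SE derived from the test, the absolute log2FC divided by the square root of its F statistic. Ctss had the widest gap: 12.1 and 11.9 CPM in retina, 327 and 296 in UON and 536 and 537 in MON (female, then male pool, as throughout). Its log2FC to retina was 4.66 ± 0.24 for UON (edgeR adjusted p = 2.71e-05) and 5.48 ± 0.25 for MON (edgeR adjusted p = 2.64e-05). Ctsk was 17.1-fold higher in UON and 18.7-fold higher in MON than in retina. The other gaps between UON and retina were from 1.88-fold for Lgmn to 8.4-fold for Lamp2. The calls of Ctsb and Lgmn in UON, and of Ctsl and Lgmn in MON, were lost when some single libraries were left out. Without the male pool of naïve UON the adjusted p of Ctsb in UON was 0.113 and that of Lgmn 0.21, and without the female pool of naïve MON that of Ctsl in MON was 0.0585. Leaving out a naïve retina library also ended these calls, with adjusted p from 0.0691 (Lgmn in MON) to 0.202 (Lgmn in UON). Summed microglial markers (10 genes) were 31.5 and 26.3 CPM in retina, 685 and 582 in UON and 928 and 826 in MON. Other lists were also lower in retina. Astrocyte markers (10 genes) summed to 573 and 565 CPM in retina and 23670 and 27210 in UON. Fibroblast and meningeal markers (10 genes) summed to 23.4 and 12.2 in retina and 4709 and 4792 in UON. Endothelial markers (6 genes) were alike, with 156 and 158 in retina and 136 and 179 in UON. The part of these cells in the differences was not tested.

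Between the 2 nerve regions only Ctss passed, with a lower level in UON (log2FC -0.82 ± 0.20, edgeR adjusted p = 0.0493), and 5.17% of all genes tested were lower (5.23% were higher). This call was lost under 5 of the 6 libraries left out in turn, with adjusted p from 0.0495 to 0.516 over all of them. Ctsl (log2FC 0.77 ± 0.30) and Lamp2 (0.71 ± 0.27) had unadjusted p of 0.036 and 0.032 and edgeR adjusted p of 0.165 and 0.154, while DESeq2 with the same model passed Ctsl and Lamp2 higher (10.8% of all genes) and Ctss lower (9.55%). Both UON pools lay above both MON pools for 5 members (26.6% of all genes did) and below for 2 (26.9%). The other lysosomal genes, 98 in 8 lists, were likewise split: of 96 tested, 5 passed higher in UON and 4 lower. Among them were Ctsh (log2FC 1.5), an aminopeptidase cathepsin, and Laptm4a (1.26), a lysosomal membrane protein, which were higher in UON, and Npc1 (-1.83), a cholesterol exporter, and Sort1 (-1.35), a sorting receptor, which were higher in MON.

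Among all comparisons with naïve, the members' largest changes were in MON after crush. Ctsd, Ctsb, Ctsz and Grn rose at both times, by 5.1 to 10.6-fold over naïve MON. In the 2 crush groups Ctsd had 6233 ± 1029 FPKM at 3 D and 8331 ± 3804 at 2 W, ranks 8 and 5 among all genes, against 673 ± 16.6 and rank 57 in naïve MON. The 10 members together took 0.497 and 0.503% of all counts in naïve MON, 2.28 and 3.34% at 3 D, and 4.28 and 2.31% at 2 W after crush. At 2 W the female pool was the higher one for 8 of the members, and at 3 D the male pool was the higher one for 9.

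Ctsd had 1967 and 1787 CPM in naïve MON, 12820 and 16780 at 3 D and 26100 and 13460 at 2 W. Every crush pool lay above both naïve pools, with an 8.44-fold rise at 3 D (log2FC 3.08 ± 0.51, edgeR adjusted p = 0.0227) and a 10.6-fold rise at 2 W (3.40 ± 0.52, edgeR adjusted p = 0.0294). Ctsb had 1379 and 1009 CPM in naïve MON, 6104 and 12370 at 3 D and 9063 and 5626 at 2 W. Its pools did not overlap either, and the rise was 8.25-fold at 3 D (log2FC 3.04 ± 0.55, edgeR adjusted p = 0.028) and 6.33-fold at 2 W (2.66 ± 0.53, edgeR adjusted p = 0.0485), the latter lost with DESeq2 (adjusted p = 0.098). Ctsz, a carboxypeptidase, had 276 and 287 CPM in naïve MON, 1181 and 1526 at 3 D and 2061 and 1347 at 2 W. It rose 5.1-fold at 3 D (log2FC 2.35 ± 0.39, edgeR adjusted p = 0.0221) and 6.19-fold at 2 W (2.63 ± 0.39, edgeR adjusted p = 0.028), with all crush pools above naïve. Grn had 234 and 217 CPM in naïve MON, 938 and 1756 at 3 D and 1765 and 822 at 2 W. All crush pools were above naïve, and the rise was 6.37-fold at 3 D (log2FC 2.67 ± 0.51, edgeR adjusted p = 0.0334) and 5.83-fold at 2 W (2.54 ± 0.51, edgeR adjusted p = 0.0487).

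For the 10 members, both crush pools lay above both naïve pools in 16 of 20 pairs of member and time (24.8% of all genes at 3 D and 24.1% at 2 W). The 4 of 10 members that passed stand beside 721 of 19988 genes tested (3.61%) that passed higher at 3 D and 425 (2.13%) at 2 W. All 8 calls rest on both naïve MON libraries. With either of them left out none passed, although every log2FC stayed at 2.25 or more. Without the male pool of MON crush 3 D the 4 calls at 3 D were lost as well, with log2FC from 1.80 to 2.55. The largest adjusted p over the libraries left out was 0.184 at 3 D (Ctsb and Grn) and 0.246 at 2 W (Grn).

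The other 6 members did not pass in MON after crush. Ctss had 536 and 537 CPM in naïve MON, 958 and 1376 at 3 D and 2448 and 1403 at 2 W, with no overlap (2 W log2FC 1.87 ± 0.42, edgeR adjusted p = 0.0655). Lgmn had 439 and 314 CPM in naïve MON, 939 and 1391 at 3 D and 846 and 572 at 2 W, again above naïve in each pool (3 D log2FC 1.74 ± 0.39, edgeR adjusted p = 0.053). Ctsl, a cysteine protease, had 266 and 256 CPM in naïve MON, 543 and 527 at 3 D and 763 and 498 at 2 W (log2FC 1.12 ± 0.32 and 1.29 ± 0.32, edgeR adjusted p = 0.102 and 0.0873). By DESeq2, all of these passed at 3 D, and Ctss and Ctsl passed at 2 W (7.94 and 6.11% of all genes passed higher by DESeq2).

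Of the membrane proteins, Lamp1 had 671 and 733 CPM in naïve MON, 354 and 375 at 3 D and 512 and 972 at 2 W. Both pools at 3 D were below naïve (log2FC -0.85 ± 0.35, edgeR adjusted p = 0.215, DESeq2 adjusted p = 0.044, with 5.08% of all genes lower by DESeq2), and those at 2 W lay on either side of it (0.07 ± 0.34). Lamp2 had 384 and 217 CPM in naïve MON, 414 and 419.7 at 3 D and 487 and 508 at 2 W (log2FC 0.60 ± 0.33 and 0.81 ± 0.33, edgeR adjusted p = 0.355 and 0.29), and every crush pool of it lay above both naïve pools. Ctsk had 20.8 and 14.4 CPM in naïve MON, 14.0 and 31.6 at 3 D and 16.1 and 11.9 at 2 W, which overlap at both times.

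**Figure D2:**
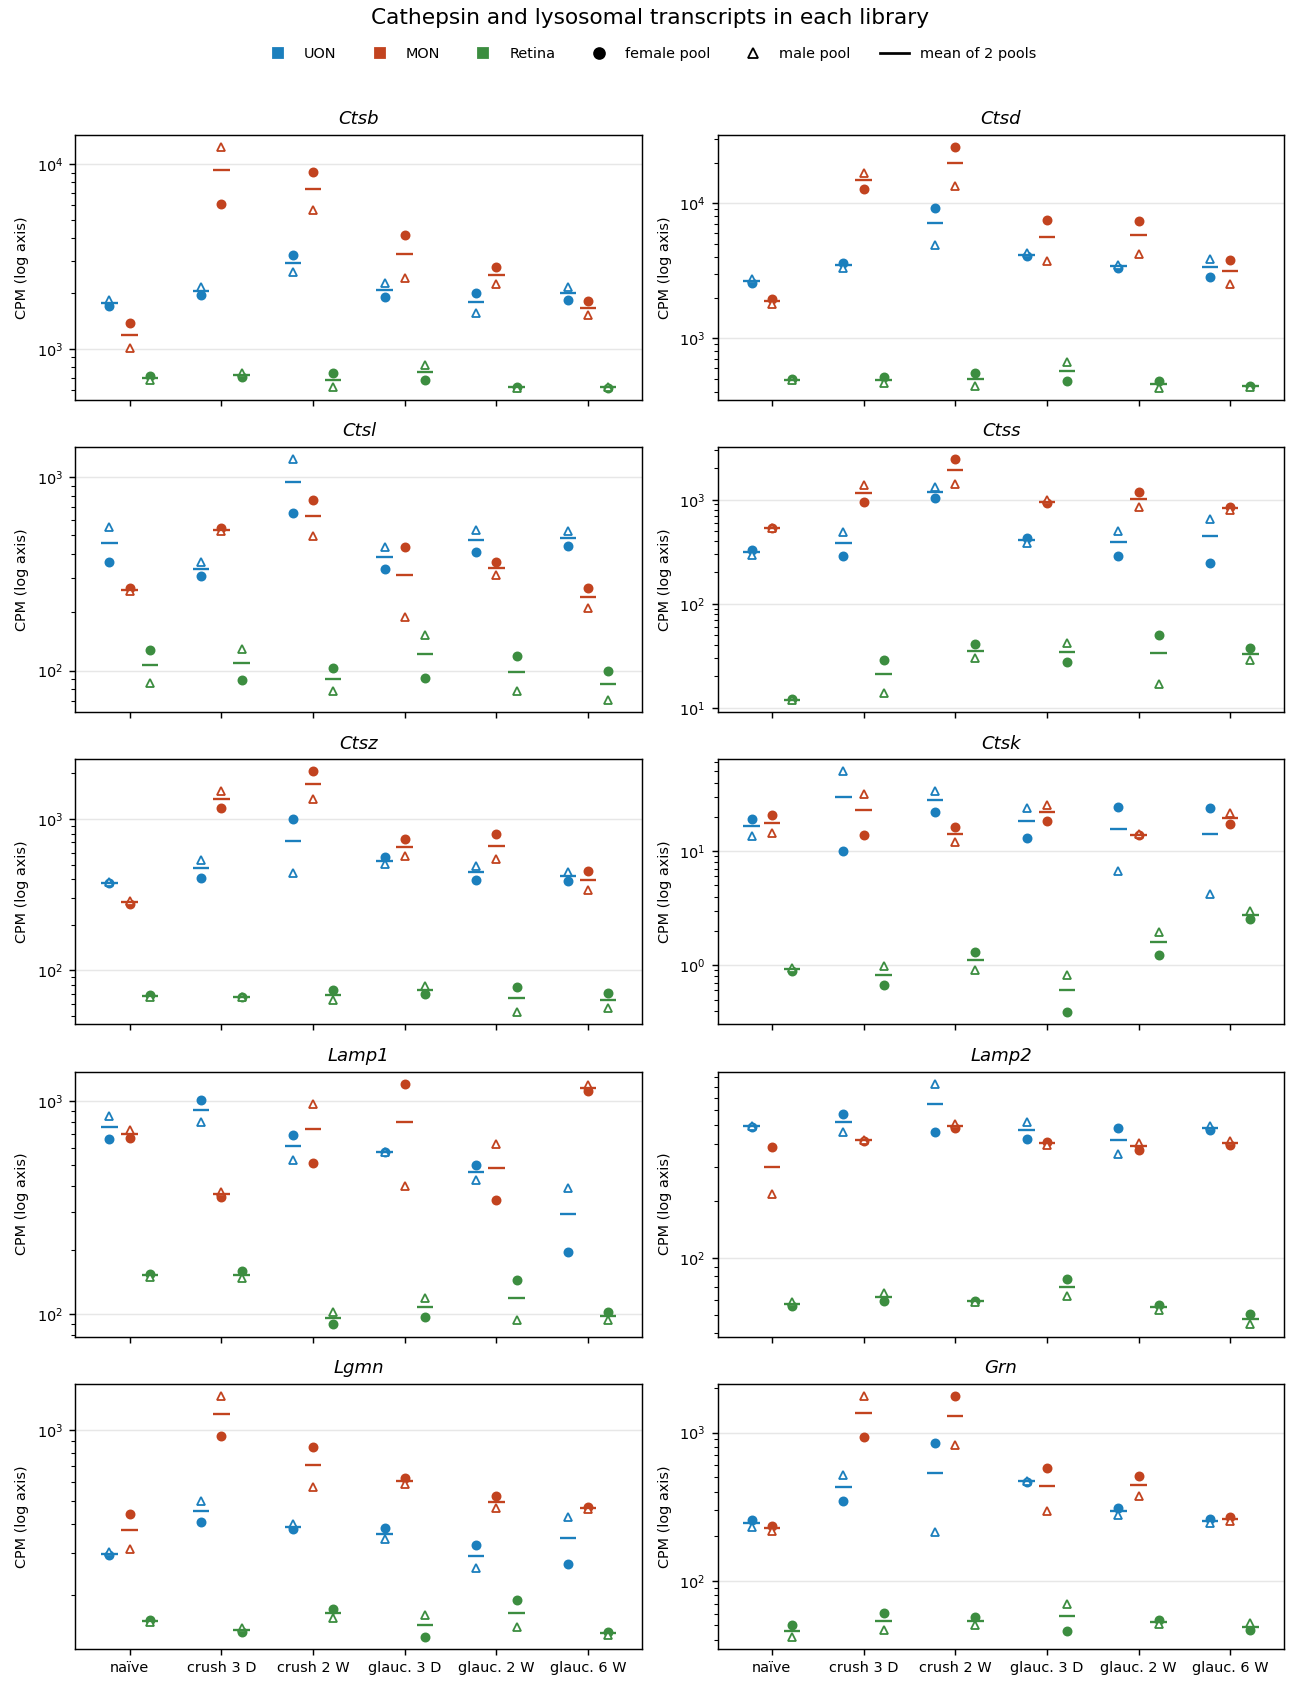
Level of each member in CPM (log axis) in all 36 libraries, by tissue and group; points are single pools (female and male). In MON, the crush pools of Ctsb, Ctsd, Ctsz and Grn lie above every naïve and glaucoma pool, while Lamp1 overlaps naïve at 2 W after crush.

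In MON the levels of cell markers moved over the same libraries. The summed level of 10 monocyte and macrophage markers was 155 and 192 CPM in naïve MON, 4153 and 8952 at 3 D and 8374 and 2225 at 2 W, and 7 of its 10 genes passed higher at 3 D and 4 at 2 W. In 1 of the naïve pools and in 1 pool at each time, 1 of these 10 genes was at 0. The 10 microglial markers summed to 928 and 826 CPM in naïve MON, 1432 and 1309 at 3 D and 3393 and 1987 at 2 W, with 1 and 3 of 10 passing higher. The 10 genes of activated microglia and phagocytes summed to 3845 and 14670 CPM in naïve MON, and 12570 to 23480 in the 4 crush pools, and 6 passed higher at 3 D and 9 at 2 W. Neutrophil markers (6 genes) summed to 0.0478 and 1.08 CPM in naïve MON, 8.70 and 15.6 at 3 D and 6.05 and 0.399 at 2 W. Of these 6 genes, 5 and 4 were at 0 in naïve MON, 3 and 2 at 3 D and 3 and 5 at 2 W. Osteoclast markers (5 genes) summed to 15.6 and 12.1 CPM in naïve MON, 27.6 and 35.0 at 3 D and 23.1 and 15.6 at 2 W. Myelin genes summed to 166400 and 124000 CPM in naïve MON and to 47310 and 60390 at 2 W. At both times the pool with the higher monocyte and macrophage sum was also the one with the higher Ctsb, Ctsd, Ctss, Ctsz, Lgmn and Grn. This also held for Ctsk, which overlapped naïve. In UON at 2 W after crush the male pool had the higher sum (1150 and 5197 CPM). There Ctsb, Ctsd, Ctsz and Grn were higher in the female pool, and Ctss, Lgmn and Ctsk in the male pool. The part of the marked cell types in the members' levels was not tested.

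The other lysosomal genes gave a wider view of MON after crush. Of 96 tested, 14 rose at 3 D and 15 at 2 W, beside 3.61 and 2.13% of all genes. None fell, where only 0.655 and 0.595% of all genes fell. The median log2FC of the 96 was 0.60 at 3 D and 0.57 at 2 W, beside -0.005 and 0.05 over all genes tested and 1.48 and 1.58 over the 10 members. Ctsc, the dipeptidase that activates granule proteases, rose at 3 D (log2FC 3.35) and at 2 W (2.15), and Ctsh rose at both times (1.66 and 2.03). Ctse passed at 2 W, with 1.18 and 1.44 CPM in naïve MON and 14.9 and 9.29 CPM at 2 W. Of the 7 other cathepsins tested, 2 rose at 3 D and 3 at 2 W.

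Among the cystatins, which inhibit cathepsins, 1 of 4 tested rose at each time: Cstb at 3 D (log2FC 1.70) and Cst7 at 2 W (5.91), the latter from 3.82 and 8.60 CPM in naïve MON to 431 and 292. Of 18 glycan hydrolases, 4 rose at 3 D and 7 at 2 W, led by the sulfatase Galns (log2FC 3.42 and 3.06), the glucuronidase Gusb (2.59 and 2.29) and the galactosidase Glb1 (1.89 and 2.09). Of 16 lipid hydrolases and their helpers, 3 rose at 3 D and 1 at 2 W. Those at 3 D included Acp5, the tartrate-resistant acid phosphatase, and Gla (log2FC 3.47), an alpha-galactosidase. Acp5 had 56 counts in 1 naïve MON library and 0 in the other, and 43.3 and 121 CPM at 3 D. The gene that passed at 2 W was Pla2g15 (1.68), a lysosomal phospholipase. Of 14 other membrane proteins, Cd68, the macrophage scavenger protein, rose at both times (log2FC 3.99 and 3.59), with Gpnmb at 3 D (3.60) and Laptm5 at 2 W (1.95).

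Of 16 proton pump subunits, which acidify the lysosome, only Atp6v0d2 passed, at both times. It had 1 count and 0 counts in the naïve MON libraries, which is under the filter's minimum count of 10, and 169 and 1123 counts at 3 D and 1022 and 122 at 2 W. Igf2r, the receptor that carries tagged enzymes to the lysosome, rose at 3 D (log2FC 1.42) and was the 1 of 9 sorting genes that passed then, with none at 2 W. None of the 12 genes of lysosomal transcription factors and signalling passed at either time by edgeR, and 2 had an unadjusted p under 0.05 at each time. Of all 19988 genes tested, 4195 at 3 D and 3204 at 2 W did.

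**Figure D3:**
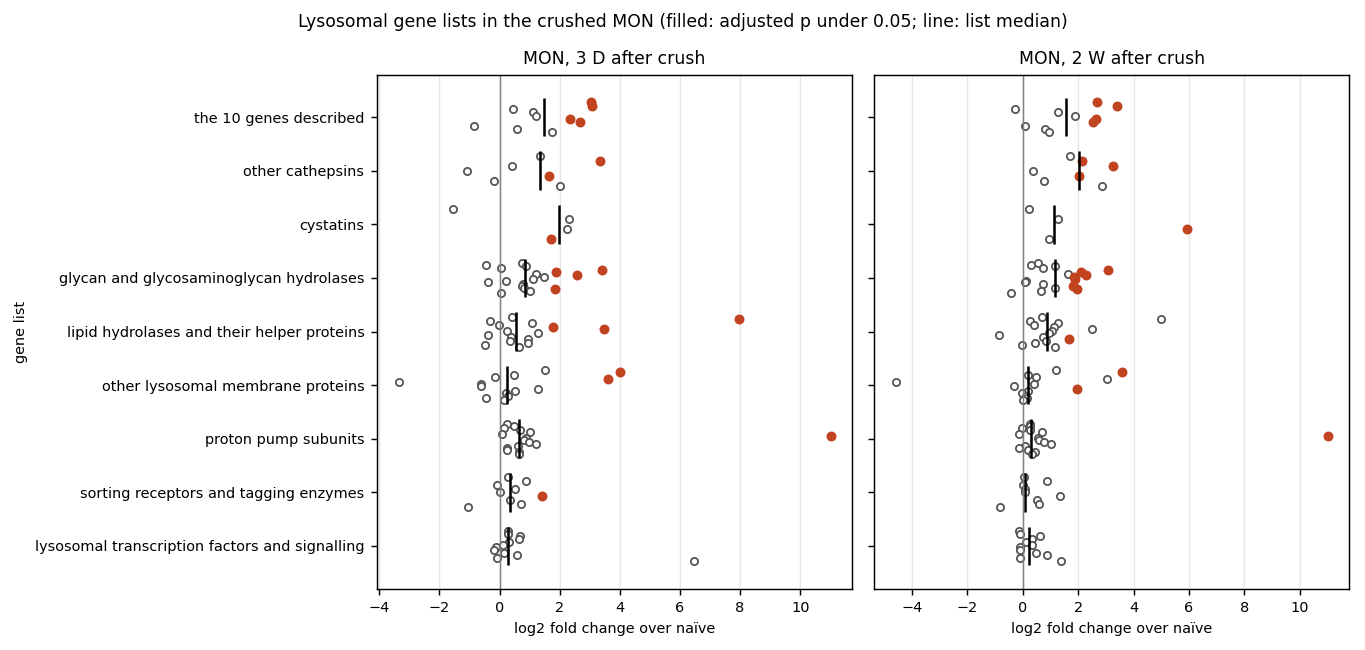
Log2FC over naïve in MON at 3 D and 2 W after crush for the members and the 8 lists of other lysosomal genes; each point is 1 gene, and points that passed the edgeR test are marked. The values of Atp6v0d2 near 11 and of Acp5 rest on a naïve library with 0 counts and depend on the fit. None of the genes that passed in these lists fell, where only 0.655 and 0.595% of all genes fell.

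In UON after the same crush, none of the members passed at 3 D or 2 W by edgeR, where 3 of 20 pairs of member and time had an unadjusted p under 0.05 and 2 passed by DESeq2, and of all genes tested edgeR passed none higher at either time (0%). Of all genes, 2.07% at 3 D and 3.79% at 2 W were higher at an unadjusted p under 0.05, and 0.832 and 1.14% by DESeq2. Both crush pools lay above both naïve pools for 12 of 20 pairs, beside 17.7% of all genes at 3 D and 20.2% at 2 W. Ctss had 327 and 296 CPM in naïve UON, 288 and 485 at 3 D and 1032 and 1339 at 2 W. At 2 W both pools were well above naïve (log2FC 1.88 ± 0.36, edgeR adjusted p = 0.313, DESeq2 adjusted p = 0.00021). Ctsd had 2578 and 2750 CPM in naïve UON, 3604 and 3314 at 3 D and 9253 and 4924 at 2 W (log2FC at 2 W 1.34 ± 0.38, edgeR adjusted p = 0.489, DESeq2 adjusted p = 0.031). The third pair with an unadjusted p under 0.05 was Ctsl at 2 W, with 362 and 551 CPM in naïve UON, 308 and 364 at 3 D and 651 and 1233 at 2 W (log2FC 1.0 ± 0.33, edgeR adjusted p = 0.496).

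The pools of UON crush 2 W differed from each other in both directions. Grn had 853 CPM in the female pool and 212 in the male pool, beside 256 and 232 in naïve UON, and Ctsz had 999 and 441 beside 377 and 380.4. Ctsl and Lamp2 (464 and 829) were higher in the male pool. In the same libraries myelin genes summed to 25280 CPM in the female pool and 3366 in the male pool, the lowest of the UON libraries, and monocyte and macrophage markers to 1150 and 5197. What these values contributed to the members' levels was not tested. With each library of the fit left out in turn, the log2FC at 2 W ran from 1.56 to 2.25 for Ctss, from 0.88 to 1.80 for Ctsd and from -0.33 to 1.91 for Grn, which was below naïve without the female pool of UON crush 2 W. Ctsb had 1711 and 1834 CPM in naïve UON and 3224 and 2613 at 2 W (log2FC 0.70 ± 0.33, edgeR adjusted p = 0.563), and Lgmn had 294 and 305 CPM and 379 and 399.5 (0.36 ± 0.30, edgeR adjusted p = 0.728).

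Across all 10 injured libraries of a tissue, crush and glaucoma together, 6 members in MON lay above both naïve libraries in 10 of 10 (Ctsb, Ctsd, Ctss, Ctsz, Lgmn and Grn), beside 3.63% of all genes tested there. In UON this held for Ctsd and Ctsz (0.773% of all genes), although for Ctsz the margin was as small as 389 CPM in glaucoma 6 W beside 380.4 in naïve. In retina it held for Ctss alone (1.98% of all genes). Lamp1 lay below both naïve libraries in 9 of 10 injured retinas, 7 of 10 injured UON libraries and 6 of 10 injured MON libraries. It lay above both in 1, 1 and 4 of them. The naïve retina pools lay close together (154.5 and 149.7 CPM), and 1 of the 9 retinas was just below them at 148 CPM. How many of all genes lie below naïve as often was not counted.

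In retina the members other than Ctss and Lamp1 stayed close to naïve after crush, with a log2FC between -0.26 and 0.24 at both times. Ctss had 12.1 and 11.9 CPM in naïve retina, 28.7 and 13.7 at 3 D and 40.6 and 30.4 at 2 W. Both pools at 2 W were above naïve (2.83-fold, log2FC 1.5 ± 0.27, edgeR adjusted p = 0.115, DESeq2 adjusted p = 4.9e-06), and edgeR passed it in 3 of the 6 fits with a library left out. Lamp1 had 155 and 149.7 CPM in naïve retina, 159 and 148 at 3 D and 89.4 and 102 at 2 W. Both pools at 2 W were below naïve (log2FC -0.70 ± 0.13, edgeR adjusted p = 0.121, DESeq2 adjusted p = 0.0011). By edgeR 0 of the 20 pairs in retina passed (of all genes 0.0176% passed higher and 0.00441% lower at 3 D, and 0.0838 and 0.251% at 2 W). At an unadjusted p under 0.05 there were 3, 2 of them higher, beside 3.32 and 3.7% of all genes higher. DESeq2 passed the 2 at 2 W described here, where it passed 0.756% of all genes higher and 1.67% lower. The 10 microglial markers summed to 31.5 and 26.3 CPM in naïve retina, 43.7 and 37.7 at 3 D and 55.2 and 49.2 at 2 W, and their part in the Ctss levels was not tested. Ctsd, the highest member in FPKM, had 497 and 486 CPM in naïve retina, 517 and 468 at 3 D and 552 and 444 at 2 W. In CPM, which is not scaled by length, Ctsb was above it, with 715 and 676 in naïve retina.

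**Figure D4:**
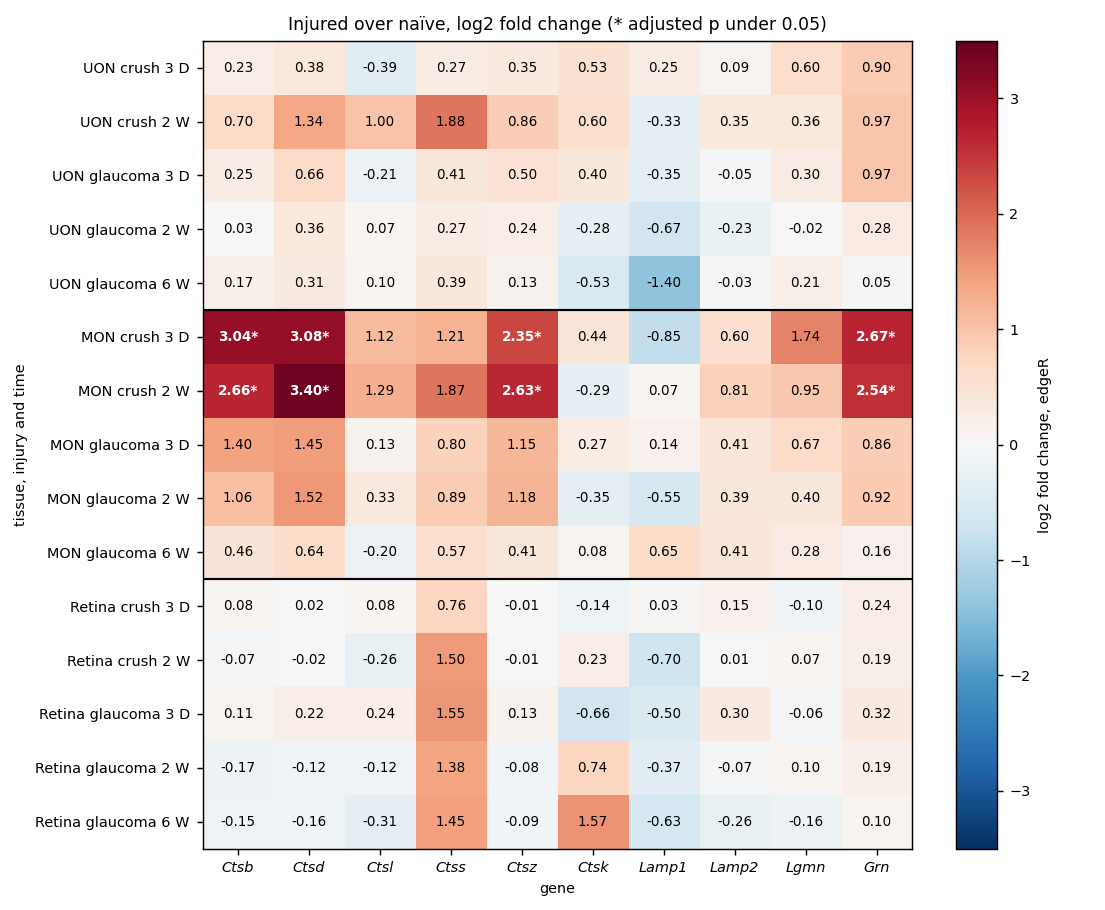
Log2FC over naïve (edgeR) for each member at each time after crush and in glaucoma, by tissue. The 8 values that passed the test are Ctsb, Ctsd, Ctsz and Grn in MON at 3 D and 2 W after crush, from 2.35 to 3.40, and in retina Ctss is above 0 in every group, from 0.76 to 1.55.

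In glaucoma the MON pools of Ctsb, Ctsd and Ctsz again lay above naïve at each time. By edgeR none of the 90 pairs of member, tissue and time passed, 21 had an unadjusted p under 0.05 (18 higher, 3 lower) and DESeq2 passed 10, all higher, of which 7 were in MON. Over all genes tested, from 451 of 22438 to 2017 of 22960 had an unadjusted edgeR p under 0.05 in a single comparison. Of all genes tested in MON, edgeR passed none higher at any of these times (0%), and DESeq2 passed 1.94, 2.18 and 0.129% higher at 3 D, 2 W and 6 W. Ctsd had 1967 and 1787 CPM in naïve MON, 7572 and 3759 at 3 D, 7323 and 4215 at 2 W and 3824 and 2504 at 6 W. Every glaucoma pool was above naïve (log2FC 1.45 ± 0.31, 1.52 ± 0.31 and 0.64 ± 0.31), and the edgeR adjusted p at 3 D and 2 W was 0.357 and 0.293, beside 0.00043 and 0.00021 by DESeq2. Ctsb had 4138 and 2411 CPM at 3 D, 2772 and 2235 at 2 W and 1817 and 1537 at 6 W. The naïve values of 1379 and 1009 were below all of these (log2FC 1.4 ± 0.26, 1.06 ± 0.25 and 0.46 ± 0.25, DESeq2 adjusted p = 1.5e-05, 0.0031 and 0.73).

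Ctsz had 739.8 and 571 CPM at 3 D, 791 and 540.3 at 2 W and 455 and 337 at 6 W, all above the naïve 276 and 287, and DESeq2 passed it at 3 D (adjusted p = 0.0028) and 2 W (0.0019), where the edgeR log2FC was 1.15 and 1.18. Ctss had 924 and 992 CPM at 3 D, 1177 and 856 at 2 W and 854 and 803 at 6 W, and DESeq2 passed it at 2 W (adjusted p = 0.019). Grn had 574 and 298 CPM at 3 D, 508 and 372 at 2 W and 269.7 and 254 at 6 W, the last close to the naïve 234 and 217. Lgmn had 624 and 589.6 CPM at 3 D, 528 and 465 at 2 W and 473 and 462 at 6 W, above the naïve 439 and 314 in each pool. The pools of Lamp1 in MON glaucoma 3 D (1206 and 397 CPM) lay on either side of the naïve values. Ctsl had one glaucoma pool at 3 D below naïve (188 CPM) and the other above (436).

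Over the 10 members, both pools in MON lay above both naïve pools for 22 of 30 pairs in glaucoma, beside 18, 20 and 20.3% of all genes at 3 D, 2 W and 6 W. Their median log2FC was 0.73 at 3 D, 0.64 at 2 W and 0.41 at 6 W, and that over all genes tested was -0.02, 0.0009 and -0.02. At an unadjusted p under 0.05, 12 of the 30 pairs were higher, beside 4.88, 5.17 and 2.24% of all genes. Of the 96 other lysosomal genes tested none passed by edgeR, and 25, 25 and 5 were higher at an unadjusted p under 0.05. Monocyte and macrophage markers in MON glaucoma summed to 3323 and 597 CPM at 3 D, 1232 and 717 at 2 W and 389 and 246 at 6 W, beside 155 and 192 in naïve MON. The female pool at 3 D had the highest of these sums. It also had the highest Ctsb, Ctsd, Ctsl, Lamp1, Lgmn and Grn among the glaucoma MON libraries. Ctss and Ctsz were instead highest in the female pool at 2 W, Lamp2 in the male pool at 6 W and Ctsk in the male pool at 3 D. The part of monocytes and macrophages in the members' levels was not tested.

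In UON glaucoma, Grn had 467 and 473 CPM at 3 D against 256 and 232 in naïve, and 309.9 and 278 at 2 W and 263 and 246 at 6 W. Both pools at 3 D were above naïve (1.95-fold, log2FC 0.97 ± 0.20, edgeR adjusted p = 0.885, DESeq2 adjusted p = 0.03), and at that time 0.499% of all genes passed higher by DESeq2. Ctsd in UON had 4072 and 4251 CPM at 3 D, 3315 and 3484 at 2 W and 2844 and 3843 at 6 W, each above the naïve 2578 and 2750. Lamp1 had 661 and 853 CPM in naïve UON, 577 and 579.7 at 3 D, 504 and 426 at 2 W and 196 and 391 at 6 W. All 6 glaucoma pools lay below naïve, with a log2FC at 6 W of -1.4 ± 0.32 (unadjusted p = 0.0029, edgeR adjusted p = 1, DESeq2 adjusted p = 0.068). By edgeR none of the 22438 genes tested passed in UON at that time.

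In the retina of glaucoma mice Ctss had 27.5 and 41.6 CPM at 3 D, 49.7 and 16.9 at 2 W and 37.5 and 28.6 at 6 W, against 12.1 and 11.9 in naïve. All 6 pools were above naïve (log2FC 1.55 ± 0.43, 1.38 ± 0.44 and 1.45 ± 0.43), with edgeR adjusted p of 0.647, 0.782 and 0.852, and DESeq2 passed it at 3 D (0.012) and 6 W (0.032), where it passed 0.556 and 0.346% of all genes higher. Microglial markers summed to 54.4 and 79.6 CPM at 3 D, 51.2 and 31.9 at 2 W and 42.8 and 41.6 at 6 W. Ctsk was near the limit of detection in retina, with 46 and 43 counts in naïve, 10 and 45 at 3 D, 50 and 100 at 2 W and 109 and 101 at 6 W of glaucoma (log2FC at 6 W 1.57 ± 0.44, edgeR adjusted p = 0.806, DESeq2 adjusted p = 0.44).

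Change over time and the difference between the models were also tested on the counts. Between later and earlier times, 0 of 90 pairs passed by edgeR, 17 had an unadjusted p under 0.05 (7 higher and 10 lower at the later time) and DESeq2 passed 4. Over all genes tested, from 1018 of 22438 to 2493 of 19988 had an unadjusted edgeR p under 0.05 in a single comparison. In UON after crush, Ctss and Ctsl were higher at 2 W than at 3 D by DESeq2 (DESeq2 log2FC 1.65 and 1.43, adjusted p = 0.0034 and 0.012). In MON glaucoma Ctsb was lower at 6 W than at 3 D (-0.95, DESeq2 adjusted p = 0.024), and in retina after crush Lamp1 was lower at 2 W than at 3 D (-0.73, DESeq2 adjusted p = 0.00098). By DESeq2, 0.404, 0.651 and 0.944% of all genes changed in these directions in the 3 comparisons. The edgeR adjusted p of these 4 were 0.474, 0.54, 0.964 and 0.197.

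Crush and glaucoma were compared at 3 D and at 2 W on all 12 libraries of each tissue, a contrast of injured groups without the naïve level. By edgeR 0 of 60 pairs passed, 18 had an unadjusted p under 0.05 (17 of them higher after crush) and DESeq2 passed 10, all higher after crush and 9 of them in MON (edgeR passed 0.00404% of all genes higher in MON at 3 D and 0% at 2 W). Over all genes tested, from 255 of 23927 to 2562 of 24738 had an unadjusted edgeR p under 0.05 in a single comparison. In MON at 3 D, Ctsd was 2.91-fold, Ctsb 3.04-fold, Grn 3.37-fold, Ctsz 2.17-fold and Lgmn 1.99-fold higher after crush. At 2 W, Ctsd was 3.45-fold, Ctsb 2.95-fold, Grn 2.92-fold and Ctsz 2.6-fold higher. The edgeR adjusted p of these 9 pairs were 0.268 to 0.389, and DESeq2 gave 1.84% of all genes higher at 3 D and 0.86% at 2 W. The tenth was Ctss in UON at 2 W (log2FC 1.62, DESeq2 adjusted p = 0.017, with 0.917% of all genes higher). Both crush pools in MON lay above both glaucoma pools for 15 of 20 pairs, beside 17.4% of all genes at 3 D and 18.4% at 2 W.

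To ask whether the response to crush differed between tissues, the change over naïve in one tissue was subtracted from that in the other in a fit of both tissues (an interaction term). The crush was made on the MON itself, so tissue and site of injury cannot be told apart. The response was larger in MON than in retina for Ctsb, Ctsd and Ctsz at 3 D and for Ctsd and Ctsz at 2 W, 5 of 150 pairs over all tissue pairs, models and times, and 40 had an unadjusted p under 0.05. Over all genes tested, from 799 of 25807 to 3757 of 25398 had an unadjusted edgeR p under 0.05 in a single comparison. At 3 D the difference in log2FC was 2.95 ± 0.52 for Ctsb (edgeR adjusted p = 0.0388), 3.02 ± 0.45 for Ctsd (0.0247) and 2.33 ± 0.36 for Ctsz (0.026), and at 2 W it was 3.36 ± 0.45 for Ctsd (0.0181) and 2.57 ± 0.36 for Ctsz (0.0201). Of all 25398 genes tested, 0.697% passed higher at 3 D and 0.366% at 2 W, and the fit with the mouse pool as a block passed 5 of the 150 as well. The MON responses use the same naïve MON libraries on which the calls of MON crush against naïve rest. These interaction fits were not repeated with a library left out. Between MON and UON none passed by edgeR (0.004% of all genes higher at 3 D and 0% at 2 W, and 0.856 and 2.3% by DESeq2). The difference for Ctsb was 2.78 ± 0.62 at 3 D (edgeR adjusted p = 0.288, DESeq2 adjusted p = 0.00096) and 1.95 ± 0.62 at 2 W (0.287 and 0.036), and for Ctsd 2.66 ± 0.64 (0.314 and 0.0016) and 2.03 ± 0.64 (0.283 and 0.022). For Ctss, which was above naïve in all 3 tissues at 2 W, the response in MON exceeded that in retina by 0.25 ± 0.50 (edgeR adjusted p = 0.934).

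The splice forms of Lamp2 differed between retina and nerve. The authors' transcript counts were turned into shares of the 5 annotated Lamp2 transcripts in each library. Lamp2-203, with the last exon printed above, made up 16.3 to 26.7% in the 12 retina libraries (median 20.8%), 0.420 to 1.65% in UON (median 0.635%) and 0.827 to 3.56% in MON (median 1.68%). The retina share was higher than that of the nerve regions from the same pool in 12 of 12 pools, by 20.0 ± 3.60 percentage points over UON and 18.8 ± 3.55 over MON (mean ± SD, n = 12 pools). The exact two-sided sign-flip permutation test gave p = 0.000488 for each, the smallest that 12 pools allow, and 0.000488 after adjustment over 3 tests. MON was above UON in 12 of 12 pools by 1.17 ± 0.81 points (same p). Lamp2-201 was lower in retina (6.10 to 15.02%) than in nerve (16.8 to 52.2%), without overlap, and Lamp2-202 was the most abundant form in retina (50.1 to 64.4%) and, by median, in nerve (69.7%). Which retinal cells hold Lamp2-203 was not tested.

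**Figure D5:**
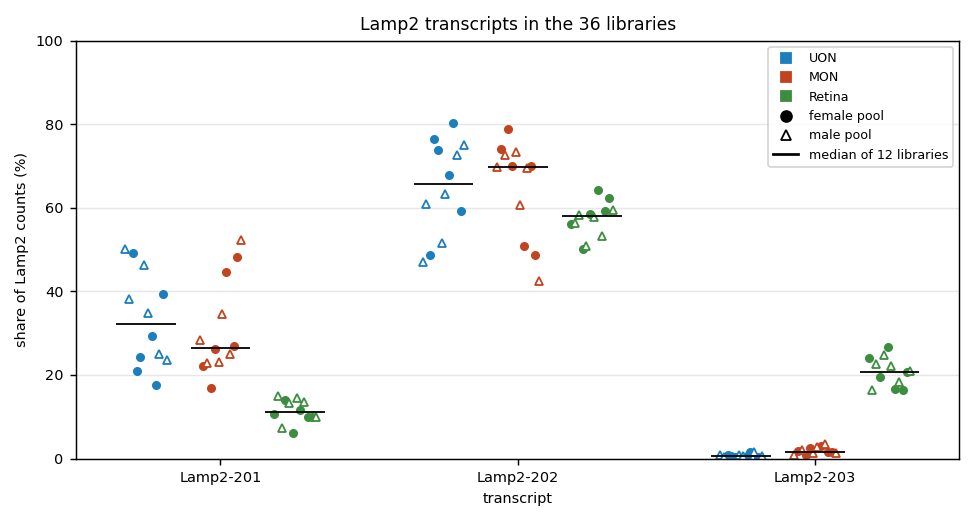
Share of Lamp2-201, Lamp2-202 and Lamp2-203 (percent of the 5 Lamp2 transcripts) in each of the 36 libraries, by tissue. Lamp2-203 lies at 16.3 to 26.7% in retina and at 3.56% or less in nerve, with no overlap.

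The shares rest on the authors' split of reads among transcripts that overlap. For Ctsd the same split was unstable: the share of Ctsd-202 ran from 20.98 to 99.9% among MON libraries, so no form of Ctsd is described. For Ctss, Ctss-202 held 87.8 to 95.8% in nerve and 66.6% or more in retina.

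The members' patterns were compared over the 36 libraries by Pearson's r of log2 CPM after each tissue's mean was removed, as a description. The libraries share pools across tissues, and depth was not removed. Ctsd and Ctsz were the most alike (r = 0.973), and Ctsb followed Ctsd (0.949). The genes nearest to Ctsb besides Ctsd were Galns (0.945) and Syngr1 (0.944), and Syngr1 was also near Ctsd (0.943) and Ctsz (0.939). Hexa, a subunit of hexosaminidase, was near Ctsz (0.945), and Grn was nearest to Ctsz (0.925), Cd244a (0.924) and Gusb (0.913). Ctss was nearest to C1qb (0.937), Tyrobp (0.929) and C1qc (0.924), genes of complement C1q and of a myeloid adaptor.

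Lgmn was nearest to Tcf19 (0.879), the complement receptor C5ar1 (0.868) and Cndp2 (0.866), and Ctsl to Trbc2 (0.845), Bambi (0.840) and Creg1 (0.816), the last a lysosomal glycoprotein. Lamp1 was nearest to Rnf11 (0.946), Bod1 (0.920) and Ppp2ca (0.918), and Lamp2 to Kpna3 (0.882), Serinc3 (0.847) and Gskip (0.828). Ctsk had the weakest neighbors, Bicc1 (0.755), Gm11627 (0.752) and Chst5 (0.752). Between members, r ran from -0.231 for Ctsb and Lamp1 to 0.973 for Ctsd and Ctsz.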

How the data were processed

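Gene and transcript counts and FPKM values were used as deposited for 36 libraries, each from a pool of RNA of 2 mice of 1 sex. The authors aligned paired reads with HISAT2 2.2.1 and made estimated counts per gene and transcript, and FPKM per gene, with StringTie 1.3.0. The estimated counts per gene were rounded to whole numbers before use. The deposited FPKM values, which the authors scaled by transcript length and depth, held a few values below 0 that were set to 0. Whether counting used strand is not given in the sources used here.

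From the counts, genes were filtered with filterByExpr (minimum count 10, minimum total 15), scaled by TMM and tested with edgeR 4.0.16 (R 4.3.3) by quasi-likelihood, with group and sex as terms. Naïve tissues were fitted together, and naïve and injured libraries separately for each tissue and model. Crush and glaucoma were compared over the 12 libraries of a tissue, and tissue differences as interaction terms. A gene passed at a Benjamini-Hochberg adjusted p under 0.05. Alternatives were DESeq2 1.42.0, RLE scaling, no filter, no sex term, limma 3.58.1 on log2(FPKM + 1), other sets of libraries and each library left out. Transcript shares were tested by exact permutation (scipy 1.17.1). The edgeR scripts were tested on simulated data.

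The members and lists were chosen with earlier results of these data known. All members were named in every comparison. From each other list up to 3 genes with the largest log2FC among those that passed were named, and for likeness the 3 genes with the highest r. The same mice gave all 3 tissues, per the study's methods, which pairs tissues by pool. The female minus male differences of 2 tissues correlated by -0.062 to 0.236 across genes in 18 pairs, with 3 above 0.1. Between groups of 1 tissue the shared label is sex, which is in the model. Depth was 16.2 to 78.1 M counts per library. The 2 pools in a group differ in sex, and with sex in the model p-values rest on spread beyond the mean sex difference.

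The values of 1 gene of the lipid hydrolase list are not reported here.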

Additional observations from a re-analysis of the deposited data

Results flagged for a closer look

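Of the members' comparisons, 5 differed between tissues by a test of the difference itself (an interaction term, edgeR's quasi-likelihood test with Benjamini-Hochberg adjustment over 25398 genes). At 3 D after crush the response in MON exceeded that in retina by 2.95 for Ctsb, 3.02 for Ctsd and 2.33 for Ctsz on the log2 scale (edgeR adjusted p = 0.0388, 0.0247 and 0.026). At 2 W it exceeded that in retina by 3.36 for Ctsd and 2.57 for Ctsz (edgeR adjusted p = 0.0181 and 0.0201). Both responses of a gene use the naïve libraries of their own tissue, and these came from the same mice. The naïve MON libraries are those on which the calls of MON crush against naïve rest, and these 5 were not retested with a library left out. Tissue and site of injury cannot be told apart, since the crush was made on the MON itself.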

How the results depend on the processing

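No member difference that passed changed direction under any alternative run for it. Of 480 member differences, 139 changed sign under at least 1 alternative, and none of these had passed in either fit. The number of members that passed between naïve regions was 20 of 30, and 19 to 23 under the alternatives (16 to 20 with a library left out). After crush 8 of 60 passed, 17 by DESeq2 and 0 to 13 with a library left out. There were 0 without either naïve MON library, 5 without the male pool of MON crush 3 D, and 13 without the male pool of MON crush 2 W. In glaucoma 0 of 90 passed and DESeq2 passed 10; over time 0 of 90 and DESeq2 4 (0 to 0 with a library left out in both). Between crush and glaucoma 0 of 60 passed, 10 by DESeq2, 5 with no filter on low counts, and 0 to 3 with a library left out, the 3 without the female pool of MON crush 3 D. For the difference between tissues 5 of 150 passed, 18 by DESeq2, 12 with no filter and 9 by limma on log2 FPKM, and leaving out a library was not run for it. The cause was not tested. With the mouse pool as a replicate block 5 of the tissue differences passed. With no replicate block (sex left out of the model) the counts were 21 between naïve regions, 11 after crush, 0 in glaucoma, 0 over time, 0 between crush and glaucoma and 7 for the tissue difference, so the block changed no count by more than 1.5 times. RLE scaling gave 19, 7, 0, 0, 0 and 6. Depth limits Ctsk in retina, with 10 to 109 counts in a library.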
